A study of Mus musculus with 4 samples.

Results

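Genes of the AP-1 transcription factor and immediate early response (IER) genes were followed in neutrophils from mammary tumors and blood of the same mice. The set holds 10 genes chosen by symbol: the Fos genes Fos, Fosb and Fosl2, the Jun genes Jun, Junb and Jund, the AP-1 partner Batf, and Ier2, Ier3 and Ier5. All 10 were among the 18894 genes listed for either tissue. Fosb, Ier3, Jun and Ier5 were higher in tumor neutrophils, by log2 fold changes between 0.95 and 6.02. Junb and Jund rose by less, 0.54 and 0.47 on the log2 scale. Fos, Fosl2 and Batf did not pass the test, and Ier2 was lower in tumor neutrophils.

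The study profiled neutrophils by Drop-seq, a droplet method in which each cell's RNA is captured on a barcoded bead and each captured molecule is counted once as a UMI (unique molecular identifier). The tumor group came from tumors of FVB mice, an inbred strain, that had been injected with Py7160 mammary tumor cells. The blood group came from the blood of the same 3 mice. No further treatment was given to either group, and both groups carried a tumor of about 1 cm, reached 2 to 3 weeks after injection. There was no tumor-free mouse, so blood stands for blood of tumor-bearing mice. Tumors were dissociated with enzymes and blood was treated with a red-cell lysis buffer. Cells of both tissues were enriched on Ly6G to about 90% purity, stained with a hashtag antibody (an antibody with a DNA tag) per mouse, pooled within the tissue, and sorted as CD11b+ Ly6G+ cells to over 99% purity. The sources used here give neither age nor sex of the mice. Each tissue is 1 library, so tissue, library and enzymatic release cannot be told apart. The p-values reflect how far mice of a library differ from each other.

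AP-1 is a dimer of leucine-zipper proteins. A Jun protein pairs with itself, with a Fos protein or with a relative such as Batf, and the pair binds DNA at the sequence TGANTCA. Fos proteins cannot pair with each other and need a Jun partner. Transcription of Fos, Fosb, Jun, Junb and the IER genes is switched on within minutes by growth factors, cytokines and stress through MAP kinases, serum response factor and NF-kB, without new protein synthesis, and most of these messages are short-lived. In many tissues the same genes are also induced while cells are being dissociated with enzymes. In neutrophils AP-1 proteins take part in the transcription of cytokine genes after stimulation.

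The promoters of the 3 genes with the highest fold changes, and of Fos as the founding subunit that did not pass the test, are printed 5′ to 3′ in the direction of the gene (RefSeq, GRCm38.p6, from 250 bases before to 50 after the start site). Capitals mark matches, on either strand, to the AP-1 site TGANTCA, the longer form TGACNTCA, the shorter motif TGACG, the CArG box of serum response factor or the NF-kB site.
Fosb promoter, chr7:19309996-19310295, minus strand: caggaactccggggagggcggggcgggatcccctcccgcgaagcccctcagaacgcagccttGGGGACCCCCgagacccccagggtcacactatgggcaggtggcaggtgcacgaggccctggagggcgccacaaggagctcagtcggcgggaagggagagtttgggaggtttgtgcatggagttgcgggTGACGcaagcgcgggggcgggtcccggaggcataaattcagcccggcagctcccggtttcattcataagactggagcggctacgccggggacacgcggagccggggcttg
Ier3 promoter, chr17:35821463-35821762, plus strand: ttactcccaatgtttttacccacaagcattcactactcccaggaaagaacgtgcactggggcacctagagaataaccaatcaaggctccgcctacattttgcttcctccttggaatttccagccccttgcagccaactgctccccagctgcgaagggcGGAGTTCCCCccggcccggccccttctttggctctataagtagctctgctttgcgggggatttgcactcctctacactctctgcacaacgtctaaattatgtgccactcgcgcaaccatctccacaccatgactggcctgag
Jun promoter, chr4:95052173-95052472, minus strand: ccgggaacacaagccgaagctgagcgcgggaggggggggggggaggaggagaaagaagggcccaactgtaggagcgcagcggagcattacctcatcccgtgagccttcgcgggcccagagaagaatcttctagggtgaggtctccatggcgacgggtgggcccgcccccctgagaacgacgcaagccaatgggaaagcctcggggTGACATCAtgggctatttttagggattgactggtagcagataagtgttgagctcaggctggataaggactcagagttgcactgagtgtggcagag
Fos promoter, chr12:85473640-85473939, plus strand: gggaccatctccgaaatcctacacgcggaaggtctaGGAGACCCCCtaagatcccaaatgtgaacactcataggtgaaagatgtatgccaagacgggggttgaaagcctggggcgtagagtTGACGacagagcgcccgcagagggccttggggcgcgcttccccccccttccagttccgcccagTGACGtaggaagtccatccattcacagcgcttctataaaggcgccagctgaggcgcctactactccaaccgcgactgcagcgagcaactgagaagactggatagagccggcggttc

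The Fosb match to TGACG begins 60 bases before the start site and its NF-kB match 188 bases before it. Ier3 had an NF-kB match 92 bases before its start site, and Jun the TGACNTCA match 45 bases before its start site. Fos had TGACG 129 and 66 bases before its start site and an NF-kB match 214 bases before it. A promoter was at hand for 9 of the 10 genes (not for Ier2). The NF-kB site was in 4 of these 9, Fos, Fosb, Fosl2 and Ier3, against 8.46% of all 32851 mouse promoters of this length. TGACG was in 4 of 9, Fos, Fosb, Junb and Batf, against 20.8% of all promoters. TGACNTCA, which would include TGACG where N is G, was in Jun and in 8.83% of all promoters. TGANTCA (7.81% of all promoters) and the CArG box (1.63%) were in none of the 9. Sites outside the printed window were not searched, so a gene without a match here may have one further away. For Jund the promoter sequence (chr8:70697489-70697788, plus strand) ended before the start of the GENCODE M21 gene model at 70698949. It may therefore not be the promoter of that model. Fosb, which rose, and Fos, which did not pass the test, both held TGACG and an NF-kB match, and Ier5, which rose, held none of the 5 motifs.

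A second feature of early response messages is the AU-rich element of the 3′ UTR, a site through which proteins such as Zfp36 shorten the life of a message. The nonamer TTATTTATT was in the 3′ UTR of 2 of the 10 genes, Fos and Fosl2 (20%), against 7.53% of 3440 genes tested below. The sites are printed from the GENCODE M21 transcripts, with the nonamer in capitals.
Fos AU-rich site: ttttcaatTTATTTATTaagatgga
Fosl2 AU-rich site: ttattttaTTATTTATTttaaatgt

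The shorter core ATTTA was in 8 of the 10 (80%), against 69.6% of the 3440. Ier3 had 8.16 of them per kb of 3′ UTR and Fos 4.91 per kb, whereas Ier2 and Batf had none. Both genes with the nonamer were among the 3 that did not pass the test, and Ier2, which fell, had no ATTTA. Jun, Junb, Jund, Ier2 and Ier5 each have a single exon, 5 of the 10 genes (50%), against 1.69% of the 3440. In GENCODE M21 (GRCm38) Jun lies at chr4:95049034-95052222, minus strand, Fosb at chr7:19302696-19310051, minus strand, Ier3 at chr17:35821684-35822923, plus strand, and Fos at chr12:85473890-85477273, plus strand. Genes on the opposite strand overlap Jun (Junos), Junb (Prdx2) and Jund (Gm11175). Junos had 11 UMIs in all tumor barcodes and 3 in all blood barcodes, Prdx2 8 in tumor and 68 in blood, and Gm11175 3 in tumor and 17 in blood, so few reads had been assigned to them.

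Barcodes with at least 200 detected genes, at most 15% mitochondrial UMIs and at least 70% of their hashtag counts from a single hashtag were used. These were 841 tumor cells (106, 564 and 171 for hashtags 1, 2 and 3) with 572844 UMIs, and 1375 blood cells (511, 456 and 408) with 1147068 UMIs. The median was 572 UMIs per tumor cell and 655 per blood cell, and no barcode used was shared between the tissues. All 10 neutrophil markers were detected in both tissues, with a summed level of 71349 to 85175 CPM in tumor mice and 178994 to 206792 CPM in blood mice (CPM, counts per 1e6 UMIs of the sum). Tumor hashtag 2 stands apart. Of its 564 cells, HTODemux, a clustering method for hashtags, assigned 235 to hashtag 2 and gave 293 no single hashtag. The rest were assigned to hashtag 1 or 3, that is, to another mouse. The 293 held 4206 CPM of Camp, a granule protein gene of immature neutrophils, and the 235 held 11.5 CPM. The results were therefore repeated with HTODemux and without this mouse.

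Counts were summed per mouse and tissue and tested with edgeR's quasi-likelihood test over 3674 genes, with adjustment over all of them. Genes with an adjusted p under 0.05 are called here. Of all genes tested, 30.2% were called higher and 29.8% lower in tumor neutrophils, and the median log2 fold change of all of them was -0.04. All 10 genes of the set passed the low-count filter. Of these, 6 were called higher, 1 lower and 3 were not called, and their median log2 fold change was 0.56. For 8 of the 10 genes tumor mice and blood mice did not overlap, with tumor higher for 7 of them and lower for Ier2. The same was true of 63% of all genes tested, with tumor higher for 29.8% and lower for 33.2%. In these sums, fewer cells with a message and less message per cell cannot be told apart.

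**Figure D1:**
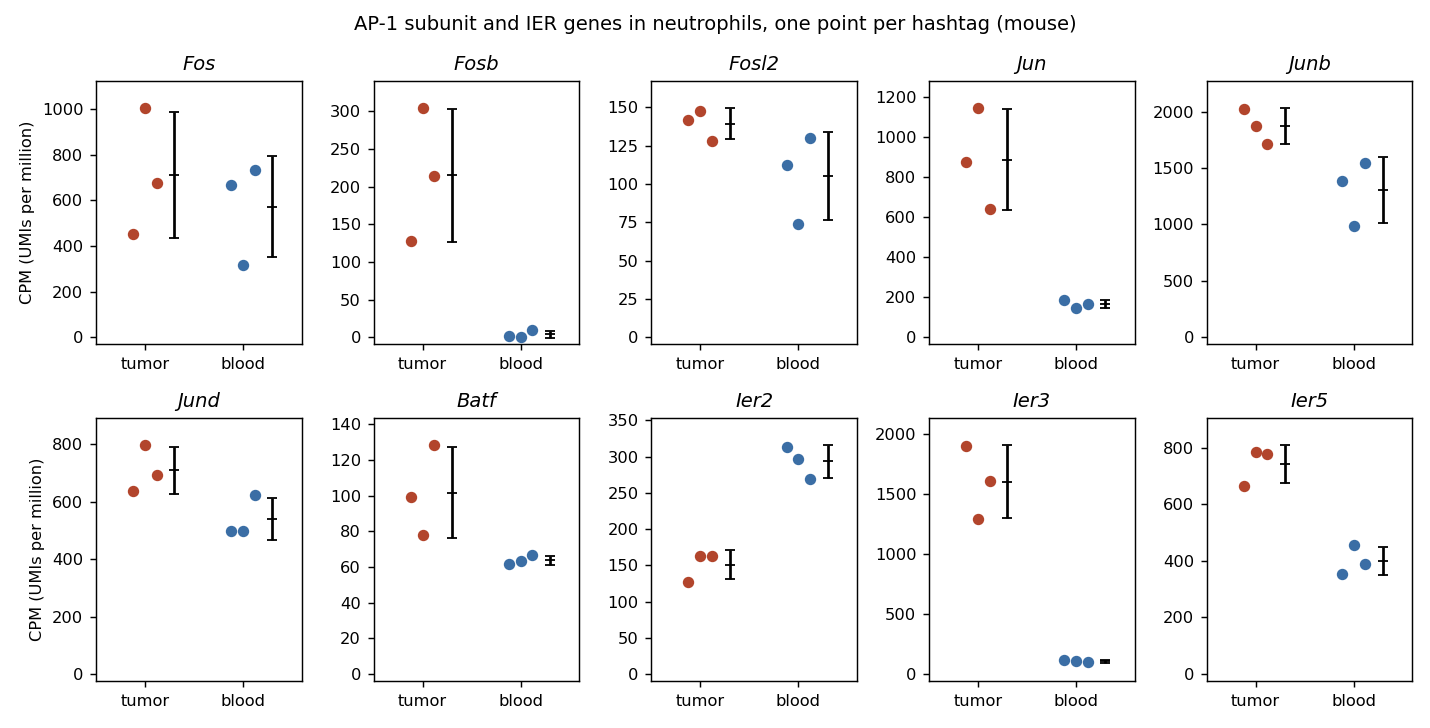
Level of each AP-1 and IER gene in CPM (linear axes from 0), 1 point per mouse, tumor left and blood right, with the mean and SD of 3 mice beside the points. The tumor points of Fosb, Jun and Ier3 lie far above the blood points, those of Ier2 lie below them, and the points of Fos and Fosl2 overlap between the tissues.

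Among the Fos genes, Fosb showed the largest difference of the whole set. It encodes a Fos protein of the fast response, which also has a shortened, long-lived form. Its level was 127, 304 and 214 CPM in the tumor mice and 2.29, 0 and 9.08 CPM in the blood mice. Every tumor mouse lay above every blood mouse, and the lowest tumor mouse was hashtag 1. The log2 fold change was 6.02 with a 95% interval of 4.98 to 7.07 (SE 0.50, edgeR adjusted p = 1.70e-08). The blood side of this value rests on 4 UMIs, against 151 in tumor, and the ratio of summed CPM was 75.6 (95% interval 28.9 to 281, counting error only). With each sum left out, the log2 fold change ran from 5.35, without blood replicate 2, to 7.11, without blood replicate 3, which held 3 of the 4 blood UMIs.

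Fos, the founding member and the partner of Jun in the classical AP-1 dimer, stood at 453, 1002 and 676 CPM in the tumor mice and at 666, 318 and 733 CPM in the blood mice. The tissues overlapped: tumor mouse 2 was the highest of the 6 and blood mouse 2 the lowest. The log2 fold change was 0.47 (SE 0.27, 95% interval -0.10 to 1.03, edgeR adjusted p = 0.143). Fos was called higher when cells were assigned with HTODemux (0.68, edgeR adjusted p = 0.00944), when at least 90% of hashtag counts from a single hashtag were required (0.64, edgeR adjusted p = 0.0416) and without tumor replicate 1 (0.67, edgeR adjusted p = 0.0402). With single sums left out its fold change ran from 0.04, without blood replicate 2, to 0.67.

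Fosl2 encodes a Fos relative without the strong activation domain of Fos, which appears later in a response. Its level was 142, 148 and 128 CPM in the tumor mice and 112, 73.7 and 130.2 CPM in the blood mice. Blood mouse 3 lay within the tumor range, and blood mouse 2 was the lowest. Fosl2 had a log2 fold change of 0.48 (SE 0.25, 95% interval -0.04 to 1.00, edgeR adjusted p = 0.105), and it was called in none of the 19 settings run, the reported one included.

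Jun, which encodes c-Jun, the strongest activator among the Jun proteins and the substrate of JNK kinases, was at 878, 1144 and 642 CPM in the tumor mice and 185, 145 and 167 CPM in the blood mice. The lowest tumor mouse, hashtag 3, was still above all blood mice, and the blood mice lay close together. Tumor over blood, the log2 fold change was 2.50 (SE 0.20, 95% interval 2.07 to 2.93, edgeR adjusted p = 1.40e-08), and between 2.18 and 2.68 in all settings run.

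Junb, which encodes a weaker activator that can hold c-Jun in check, was at 2025, 1876 and 1711 CPM in the tumor mice and 1385, 984 and 1547 CPM in the blood mice. The groups did not overlap, with blood mouse 2 well below the other two. This gave a log2 fold change of 0.54 (SE 0.15, 95% interval 0.22 to 0.86, edgeR adjusted p = 0.00499). It lost its call without blood replicate 2 (0.26, edgeR adjusted p = 0.132), with a minimum of 300 genes per cell (0.33, edgeR adjusted p = 0.118) and with the low-count filter off (0.25, edgeR adjusted p = 0.463).

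Jund encodes the Jun protein that is made steadily in resting cells and is the least dependent on stimulation. It stood at 637, 797 and 693 CPM in the tumor mice and at 497, 497 and 624 CPM in the blood mice. The groups were separated only narrowly, since tumor mouse 1 and blood mouse 3 lay close to each other. The log2 fold change was 0.47 (SE 0.15, 95% interval 0.16 to 0.78, edgeR adjusted p = 0.0116). Jund was called in 12 of the 19 settings, and the call was lost, among others, without tumor replicate 2 (0.35), blood replicate 1 (0.29) or blood replicate 2 (0.29), with edgeR adjusted p from 0.108 to 0.189, and with DESeq2 (0.39, adjusted p = 0.114).

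Batf encodes a small AP-1 protein without an activation domain, which pairs with Jun proteins and is best known from lymphocytes. It was low, at 99.1, 77.8 and 128 CPM in the tumor mice and 61.8, 63.1 and 66.6 CPM in the blood mice, from 52 UMIs in tumor and 73 in blood. The mice did not overlap, yet the log2 fold change of 0.59 did not pass the test (SE 0.28, 95% interval -0.01 to 1.19, edgeR adjusted p = 0.0840). It was called with at least 300 genes per cell (1.00, edgeR adjusted p = 0.0221) and with cells thinned to equal depth (1.01, edgeR adjusted p = 0.0231).

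The IER genes went in opposite directions. Ier3, also called IEX-1, is an NF-kB target that takes part in the control of cell survival. Its level was 1898, 1289.7 and 1609 CPM in the tumor mice and 119, 105 and 96.9 CPM in the blood mice. Tumor mouse 2 was the lowest tumor mouse and still far above blood. The log2 fold change was 3.87 (SE 0.17, 95% interval 3.52 to 4.22, edgeR adjusted p = 4.16e-12), and it stayed between 3.58 and 4.14 in all settings run.

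Ier5 encodes a nuclear protein that is induced by stress and acts with heat shock factor. It was at 666, 784 and 779 CPM in the tumor mice and 355, 455 and 391 CPM in the blood mice, with no overlap. Ier5 had a log2 fold change of 0.95 (SE 0.15, 95% interval 0.63 to 1.26, edgeR adjusted p = 3.58e-05), and Ier5 was called higher in all 19 settings.

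Ier2, which encodes a nuclear protein and is a standard immediate early gene of serum-stimulated cells, was the gene of the set that fell. It was at 127, 163 and 163 CPM in the tumor mice and 314, 297 and 269 CPM in the blood mice. Every tumor mouse lay below every blood mouse. The log2 fold change was -0.86 (SE 0.19, 95% interval -1.26 to -0.46, edgeR adjusted p = 8.74e-04), and Ier2 was called lower in all 19 settings, with values from -1.18 to -0.71. Enzymes had been used on the tumor only, and Ier2, Fos, Fosl2 and Batf are the genes of the set that were not called higher in tumor neutrophils.

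**Figure D2:**
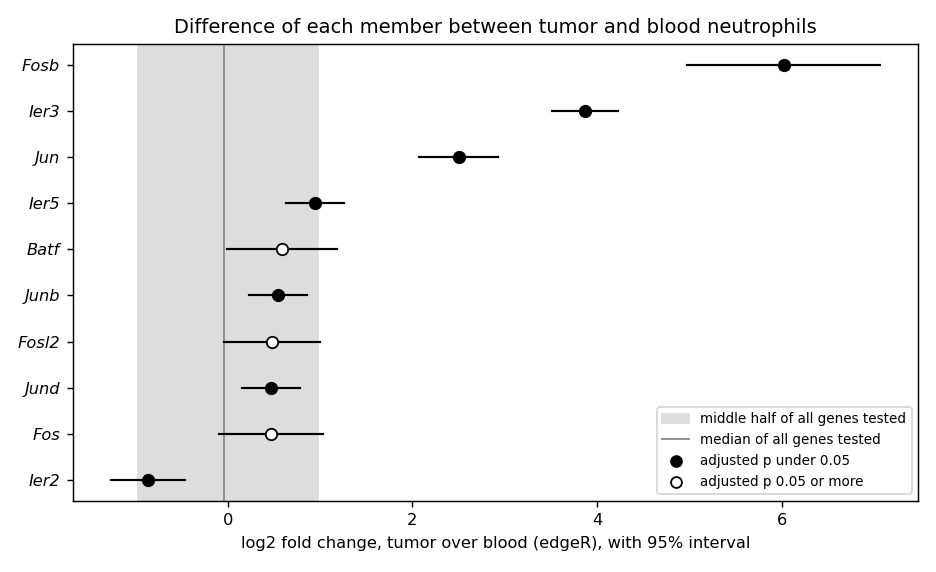
Log2 fold change of each gene, tumor over blood (edgeR), with its 95% interval; filled points have an adjusted p under 0.05, the grey band runs from the first to the third quartile of all 3674 genes tested and the vertical line their median (-0.04). Fosb (6.02), Ier3 (3.87) and Jun (2.50) lie beyond the band, and Ier2 (-0.86) is on the other side of 0.

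The make-up of the Jun, Fos and IER groups was compared as the share of each gene in the summed UMIs of its group. This measure does not depend on the scaling between libraries. Drop-seq counts a tag at the 3′ end of each molecule, so UMIs were not divided by transcript length. In the Jun group, Jun held 24.8%, 29.98% and 21.1% of UMIs in the tumor mice and 8.97%, 8.90% and 7.12% in the blood mice. Junb was the largest part of the group in all 6 sums, at 54.2% ± 4.38 in tumor and 64.6% ± 3.53 in blood (SD, n = 3 mice each). Jund held 20.5% ± 2.39 in tumor and 27.1% ± 3.30 in blood. None of these 3 genes overlapped between the tissues, but with HTODemux the share of Jund overlapped (20.2% ± 3.85 in tumor, 26.98% ± 3.25 in blood; exact two-sided permutation p = 0.2).

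In the Fos group, Fosb held 17.6%, 20.9% and 21.01% of UMIs in the tumor mice and 0.293%, 0% and 1.04% in the blood mice. Fos itself held 66.0% ± 3.11 in tumor and 83.5% ± 2.11 in blood, while Fosl2 overlapped at 14.1% ± 4.90 in tumor and 16.0% ± 2.41 in blood. In the IER group, Ier3 held 63.8% ± 6.46 in tumor and 13.4% ± 1.51 in blood, Ier2 held 6.14% ± 1.30 in tumor and 36.7% ± 2.75 in blood, and Ier5 held 30.1% ± 5.16 in tumor and 49.9% ± 4.26 in blood. The exact two-sided permutation p was 0.1 for 8 of the 9 shares, the smallest that 3 against 3 mice allow (0.1125 after adjustment over 9), and 0.6 for Fosl2. With HTODemux Fosl2 no longer overlapped, at 11.96% ± 1.55 in tumor and 16.4% ± 3.31 in blood (exact permutation p = 0.1, n = 3 mice each). With no p under 0.05 possible, these shares are read by their overlap. The shares of a group make up a whole, so a larger share of any gene lowers those of the others. Junb, Jund and Ier5 held smaller shares in tumor although their levels were called higher there.

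**Figure D3:**
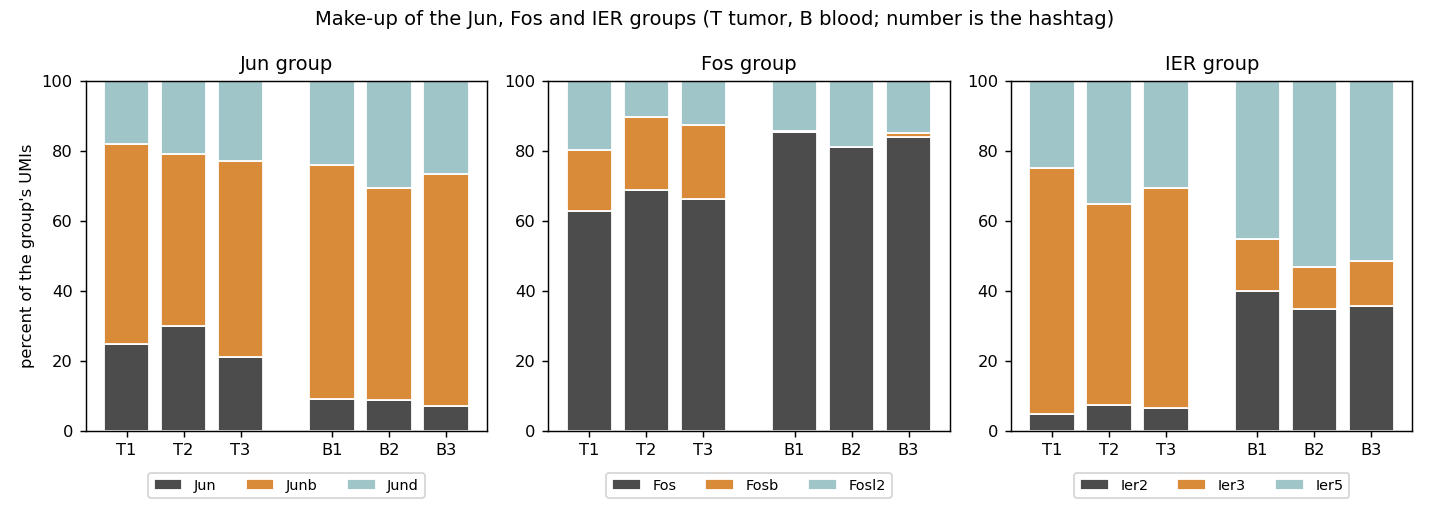
Share of each gene in the UMIs of the Jun, Fos and IER groups (percent, stacked bars from 0 to 100), 1 bar per mouse, with tumor mice (T) left and blood mice (B) right. Jun, Fosb and Ier3 take larger parts of their groups in all 3 tumor bars than in any blood bar, and Ier2 a smaller part.

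Shares of cells with a UMI were compared at an equal depth of 441 UMIs per cell, which left out 209 shallower tumor cells and 254 blood cells. Ier3 was found in 39.2% ± 6.42 of tumor cells and 4.46% ± 1.17 of blood cells (SD, n = 3 mice each; exact two-sided permutation p = 0.1, 0.167 adjusted over 10 genes). Jun was found in 23.5% ± 3.73 of tumor cells and 7.196% ± 0.611 of blood cells, Fosb in 7.19% ± 2.77 and 0.168% ± 0.153, and Ier5 in 27.8% ± 1.98 and 16.7% ± 2.16, each with the same p and no overlap. Ier2 was found in fewer tumor cells, 4.88% ± 1.92, than blood cells, 12.4% ± 1.36, and Batf in 4.56% ± 1.30 of tumor cells and 2.69% ± 0.389 of blood cells, again at p = 0.1 by the exact permutation test. Without thinning the Batf shares overlapped, at 5.72% ± 2.15 of tumor cells and 4.81% ± 0.104 of blood cells (exact permutation p = 0.9). A cell held a UMI of 1.95, 2.14 and 2.03 of the 10 genes on average in the tumor mice and of 1.39, 1.18 and 1.46 in the blood mice.

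For Junb, Jund, Fos and Fosl2 the shares overlapped. Junb was found in 45.6% ± 0.718 of tumor cells and 43.7% ± 7.13 of blood cells (exact permutation p = 1), Jund in 23.7% ± 3.39 and 22.2% ± 0.853 (p = 0.9, same test), and Fos in 21.6% ± 5.23 and 19.997% ± 7.01 (p = 0.8, same test). Without thinning, the shares of all 3 were lower in tumor cells, by 3.51, 1.89 and 1.51 percentage points. A p of this size does not show that the shares are equal. For Junb, Fos, Jun and Ier3, cells rich in UMIs made up a larger part of the tumor library. No cell of either tissue held as many as 5 UMIs of Fosl2 or Batf. At least 5 Junb UMIs were held by 40 of 841 tumor cells and 31 of 1375 blood cells, and these cells had 23.8% of all Junb UMIs in tumor and 11.6% in blood. For Fos the same cells numbered 17 in tumor and 11 in blood and held 26.4% and 9.94% of its UMIs. For Jun they numbered 22 in tumor, with 30.1% of its UMIs, and 0 in blood. For Ier3 they numbered 32 in tumor, with 32.0% of its UMIs, and 1 in blood, with 4.84%. These counts were taken without thinning, at a lower median depth in tumor, and pool the mice.

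RNA outside cells can give a cell a UMI, and no cell type that should lack these genes was at hand in either library. Barcodes with 20 to 60 UMIs were used beside the cells, 5945 in tumor (median 46 UMIs) and 6739 in blood (median 36 UMIs). In tumor, Fosb was at 264 CPM in the cells used (95% Poisson interval 223 to 309) and at 272 CPM in these barcodes (213 to 342). In blood it was at 3.49 CPM in cells and 20.2 CPM in these barcodes (6.57 to 47.3). A cell made up of the RNA of these tumor barcodes would hold a Fosb UMI in 11.3% of cases at 441 UMIs. Of the tumor cells 7.19% held a Fosb UMI, so such a UMI does not by itself show that a given cell expressed the gene. At least 5 Fosb UMIs were held by 2 of 841 tumor cells, with 9.93% of all Fosb UMIs in tumor cells. In tumor, Fos was also seen in fewer cells (21.6%) than this background gives (28.8%). Fosl2 (6.01% seen against 6.98%) and Jun (23.5% against 24.2%) lay close to it. The seen shares are means of 3 mice, whereas the background pools the mice. By mouse, Jun was seen in 22.8%, 27.5% and 20.1% of tumor cells and Fosl2 in 7.53%, 4.85% and 5.65%, on both sides of the background. The shares of Fos, Fosl2 and Jun alone do not set cells apart from this background. By level, Jun was higher in tumor cells, at 1009 CPM (928 to 1095), than in the low-UMI tumor barcodes, at 627 CPM (536 to 729), while the intervals of Fos overlapped, at 868 CPM (793 to 947) in cells and 769 CPM (667 to 881) in those barcodes.

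As means of 3 mice, Ier3, Ier5, Junb, Jund, Batf and Ier2 were seen in more tumor cells than this background gives. Ier3 was seen in 39.2% against 25.2% in background, Ier5 in 27.8% against 13.8%, and Ier2 in 4.88% against 2.92%. In blood cells, Ier2 was seen in 12.4% against 2.99% in background. Tumor cells held 159 CPM of Ier2 and blood cells 296 CPM, and the low-UMI barcodes 67.2 CPM in tumor (95% Poisson interval 39.8 to 106) and 68.8 CPM in blood (40.1 to 110). For Fosb, Jun and Ier3 the low-UMI barcodes of tumor were also higher than those of blood, with 627 CPM for Jun in tumor barcodes and 80.99 CPM in blood barcodes, and with 657 and 24.3 CPM for Ier3. The part of this RNA in the difference between the tissues was not tested.

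**Figure D4:**
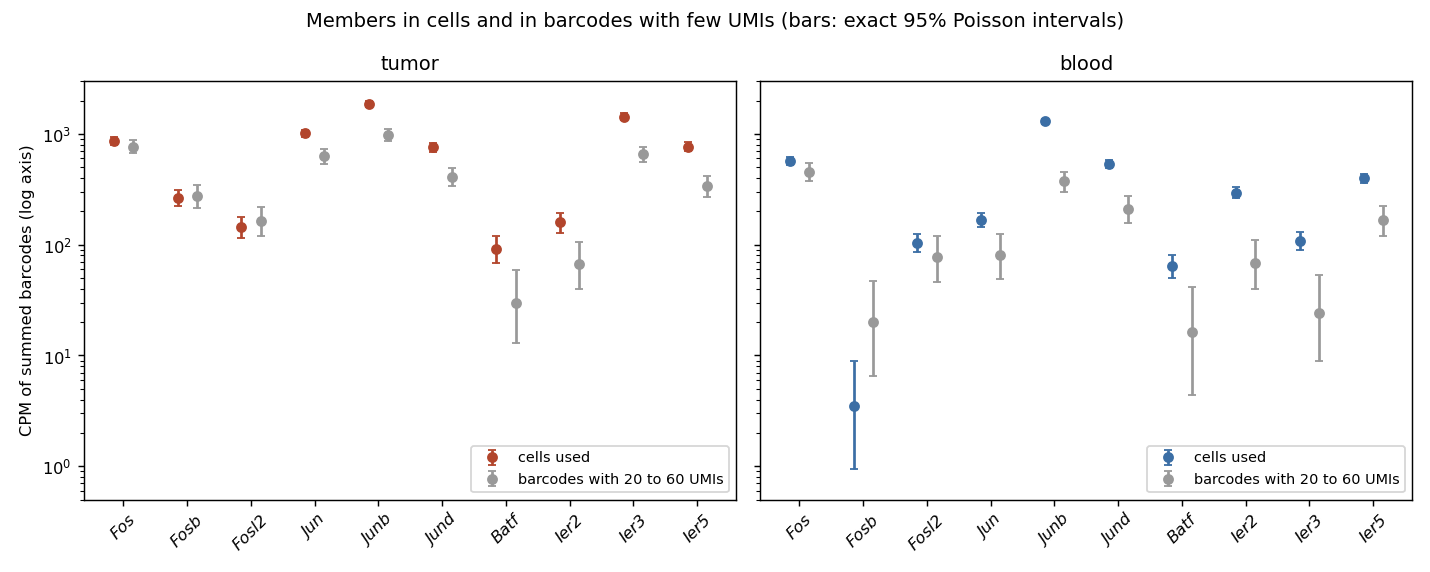
Level of each gene in CPM (log axis) in the cells used (colored) and in barcodes with 20 to 60 UMIs (grey), tumor left and blood right, with exact 95% Poisson intervals that cover counting error only. In tumor the Fosb points lie at the same height (264 CPM in cells, 272 CPM in low-UMI barcodes), while the Ier3 and Ier5 points of cells lie above the grey ones.

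Depth of the cell moved with some levels. Tumor cells with at least 500 genes held 998 CPM of Fos (95% Poisson interval 830 to 1189.8), and those with under 300 genes 879 CPM (756 to 1015). Blood cells with at least 500 genes held 373 CPM of Fos (316 to 437), and those with under 300 genes 712 CPM (605 to 831). Jund was likewise lower in the deeper blood cells, at 321 CPM against 774 CPM. Junb, Ier3 and Ier5 were lower in the deeper cells of both tissues, with Poisson intervals that lay apart. In tumor, Junb was at 1424 CPM against 2153 CPM, Ier3 at 1086 CPM against 1695 CPM and Ier5 at 579 CPM against 902 CPM. In blood, Junb was at 889 CPM against 1594 CPM. Jun and Batf were also lower in the deeper blood cells, while their intervals overlapped in tumor. Camp moved with depth as well: cells with at least 500 genes held 6253 CPM in tumor and 7936 CPM in blood, and cells with under 300 genes 81.2 CPM in tumor and 663 CPM in blood. Its part in the levels of the genes of the set was not tested. Over the 3 depth classes (under 300 genes, from 300 to under 500, and 500 or more), Ier2 lay between 129 and 186 CPM in tumor cells and between 291 and 304 CPM in blood cells.

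The label of the cells was checked against markers of other types. Cells with at least 2 UMIs of monocyte and macrophage, MHC class II, T or NK, B, mammary or stromal markers numbered 73 of 841 in tumor (8.68%) and 99 of 1375 in blood (7.2%). The 73 tumor cells held 14.2% of all tumor UMIs and 27.8% of Fosb UMIs, and between 9.32% and 17.1% of the UMIs of the other 9 genes. All 10 monocyte and macrophage markers were detected in tumor, with a summed level of 297 to 2114 CPM across mice, against 4 of 10 and 227 to 291 CPM in blood, where C1qa, C1qb, C1qc, Ms4a7 and Mrc1 were among those at 0. MHC class II and dendritic markers were at 156 to 2854 CPM in tumor and 36.6 to 133 CPM in blood, with Flt3, Xcr1 and Clec9a at 0 in both. Of 9 T and NK markers 1 was detected in tumor, at 8.56 to 36.3 CPM, and 8 in blood, at a summed 96.9 to 249.96 CPM. The 5 erythroid markers were at 0 in tumor and summed to 13960 to 22155 CPM in blood. Without the cells with such markers the same 7 genes were called, in the same directions, and the log2 fold change of Fosb was 5.66.

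Variation inside the tumor was looked at within the single digested library. Retnlg, a resistin-like gene typical of circulating neutrophils, was detected at 441 UMIs in 24, 116 and 29 cells of the tumor mice and not detected in 57, 307 and 99. With the mouse as a block, 34 of 514 genes tested were higher and 12 lower in cells with a Retnlg UMI (edgeR, 8.95% of genes called). Those higher included Ngp (3.64 on the log2 scale, edgeR adjusted p = 4.23e-04) and Camp (2.75, edgeR adjusted p = 0.0104), named after their values were seen. The classes thus also differed in Camp, the granule protein gene of immature neutrophils named above. The 6 genes of the set with enough counts were not called: Fos, Jun, Junb, Jund, Ier3 and Ier5, with a smallest unadjusted p of 0.132 over them and 112 of the 514 genes at an unadjusted p under 0.05. Ier3 was at 2207, 752 and 1740.5 CPM in cells with a Retnlg UMI and 1989, 1426 and 1924 CPM in cells without, a log2 fold change of -0.38 (95% interval -0.90 to 0.14, edgeR adjusted p = 0.373). For Jun the log2 fold change was -0.01 (95% interval -0.68 to 0.66, edgeR adjusted p = 0.988) and for Fos 0.38 (-0.31 to 1.06, edgeR adjusted p = 0.527). Most of these cells came from tumor mouse 2. Without it, 3 genes were higher and 0 lower, and the fold change of Jun was 0.69.

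The rest of the pathway was read from lists of other genes, with overlaps between lists. Their counts stand beside the 30.2% of all genes tested that were called higher and the 29.8% called lower. Of 8 other AP-1 family genes tested, 6 were higher in tumor neutrophils and none lower, with a median log2 fold change of 3.00 against -0.04 for all genes tested. Maff, a small Maf protein without an activation domain, averaged 498 ± 77.8 CPM in tumor and 2.90 ± 3.04 CPM in blood (SD, n = 3 mice each), where it had 3 UMIs, and its ratio was 204 (95% interval 69.2 to 996, counting error only). Atf3, a stress-induced partner of Jun proteins, was at 1731 ± 268 CPM in tumor mice and 40.3 ± 23.5 CPM in blood mice, 5.41 higher on the log2 scale (edgeR adjusted p = 1.03e-11). Jdp2, a repressor that pairs with c-Jun, rose by 3.78, Atf4 by 2.22 and Mafg by 1.41 on the log2 scale. The genes Atf2 and Atf6, named here after their values were seen, were not called, at -0.01 and -0.02.

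Of 15 upstream kinases and partners of serum response factor tested, 6 were higher and 2 lower, with a median log2 fold change of 0.09. Over all genes tested, 30.2% were higher and 29.8% lower, with a median of -0.04. The genes that fell were Mapk14, which encodes the kinase p38α, and Map3k5, a stress-activated kinase (-1.68 on the log2 scale, edgeR adjusted p = 3.74e-04). Mapk14 averaged 12.3 ± 19.1 CPM in tumor mice and 99.3 ± 11.03 CPM in blood mice (-3.37 on the log2 scale, edgeR adjusted p = 5.94e-05). Its tumor side rests on 5 UMIs, against 113 in blood, so the size of this fall is uncertain. Mapkapk2, the kinase just below p38, was at 293 ± 55.9 CPM in tumor mice and 25.01 ± 4.41 CPM in blood mice, 3.45 higher on the log2 scale (edgeR adjusted p = 4.47e-09). Map3k8, which links Toll-like receptors to ERK, rose by 2.03 on the log2 scale.

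Of 23 other early response genes tested, 19 were higher and 1 lower, with a median log2 fold change of 1.99. Nr4a3, an orphan nuclear receptor, averaged 654 ± 159 CPM in tumor and had no UMI in blood, so it was at least 255-fold higher in tumor (against 3 counts over the summed blood mice). At the low end, the antiproliferative gene Btg1 rose by 0.43 and the zinc finger gene Klf6 by 0.48 on the log2 scale. Socs3, the feedback inhibitor of cytokine receptors, fell by 0.80 on the log2 scale (256 ± 43.4 CPM in tumor, 438 ± 93.8 CPM in blood; edgeR adjusted p = 0.00176). Gadd45a, Zfp36l1 and Klf2, named after their values were seen, were not called, with log2 fold changes of -0.17, 0.04 and 0.08.

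Of 21 genes tested from a list known to respond to tissue dissociation, 12 of whose 26 genes are also in the early response list, 18 were higher and 2 lower, with a median log2 fold change of 1.63. The early growth response gene Egr1 was at 774 ± 157 CPM in tumor mice and 4.29 ± 1.15 CPM in blood mice, 7.35 higher on the log2 scale (edgeR adjusted p = 1.64e-12). Cebpd, an acute-phase transcription factor, fell by 2.56 on the log2 scale, at 129 ± 50.6 CPM in tumor mice and 641 ± 47.3 CPM in blood mice (edgeR adjusted p = 3.86e-08), and Socs3 fell as above. Most tested genes of this list were thus higher in tumor neutrophils, beside 30.2% of all genes tested. The part of enzymatic release in these values was not tested.

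Of 10 textbook AP-1 target genes tested, 8 were higher and 1 lower, with a median log2 fold change of 3.24. Ptgs2, the inducible prostaglandin synthase, was at 714 ± 217 CPM in tumor and had 2 UMIs in blood, a ratio of 359 (95% interval 98.8 to 2979, counting error only). Tnf was at 449 ± 81.0 CPM in tumor mice and 5.05 ± 1.93 CPM in blood mice, 6.34 higher on the log2 scale (edgeR adjusted p = 2.48e-11). The urokinase receptor gene Plaur rose by 1.77 and Il1b by 0.73 on the log2 scale. Mmp9, a gelatinase stored in neutrophil granules and also one of the neutrophil markers above, fell by 2.09 on the log2 scale, at 138 ± 17.5 CPM in tumor mice and 638 ± 132 CPM in blood mice (edgeR adjusted p = 1.92e-07). Cd44, named after its value was seen, was not called, at 0.10.

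**Figure D5:**
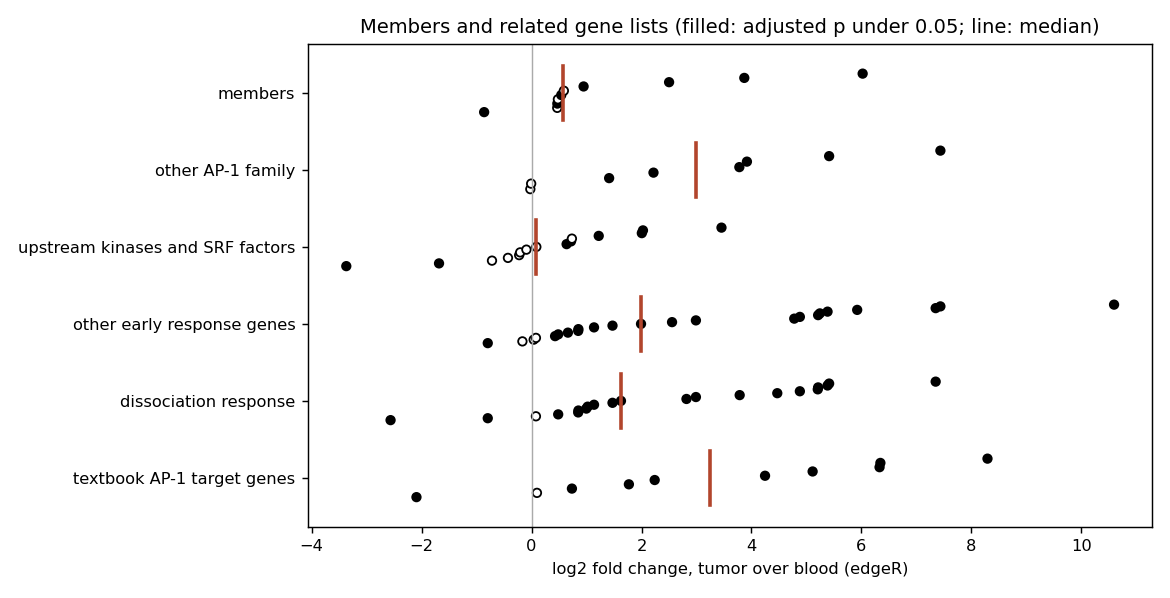
Log2 fold change, tumor over blood (edgeR), of the 10 genes of the set (labelled members) and of 5 lists of other genes, 1 point per gene, filled where the adjusted p was under 0.05, with a bar at each median. The medians are 0.56 for the set and 3.00, 0.09, 1.99, 1.63 and 3.24 for the lists from top to bottom; the rightmost point is the fitted value of Nr4a3, which had no blood UMI and whose fit is no bound.

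For each gene, the tested gene outside the set with the most similar pattern over the 6 sums was found by the mean absolute difference of row-centred log2 CPM, computed with a small count added to every sum. Ier2 was nearest to Phf20l1, at a mean difference of 0.06, where the median over all genes was 0.61, and Phf20l1 averaged 207 CPM in tumor and 409.6 CPM in blood. Fosl2 was nearest to the arginase gene Arg2 (0.09; 272 CPM in tumor and 211 CPM in blood). Slc6a6 was nearest to Junb, Resf1 to Jund, Pcyt1a to Fos, Ubqln1 to Batf and Pum2 to Ier5. For Fosb, Jun and Ier3 no match is given, since the nearest genes had between 0 and 18 UMIs in blood and fold changes that differed from those of the set by over 1 on the log2 scale, so that the added count entered the distance. With 6 sums in 2 tissues this is a description of pattern alone.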

How the data were processed

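The authors deposited raw UMI counts per gene and barcode and raw hashtag counts per barcode, per the file headers and values. The submitters' processing notes name STAR and mm10. The counter, its annotation, its use of strand and any filter on barcodes are not stated there, so reads of a gene and an antisense partner cannot be told apart. Counts of each tissue's cells were summed per hashtag, with total UMIs of 70612, 385370 and 116862 in tumor and 436713, 380059 and 330296 in blood. Barcodes whose top hashtag held under 70% of hashtag counts, which include doublets of mice, were left out (103 in tumor, 154 in blood), as were 3 and 5 without hashtag counts. No other doublet caller was run. Precision was lowest in tumor hashtag 1. The sums were tested with edgeR 4.0.16 (R 4.3.3; quasi-likelihood, TMM, default low-count filter, Benjamini-Hochberg over 3674 genes, which held 93.9% of UMIs), with tissue as the sole term. Levels are CPM of summed UMIs. Poisson intervals and floors of 3 counts are 95% limits that cover counting error only. Shares of cells at 441 UMIs, the 25th percentile of tumor cells, are hypergeometric expectations. The test was tried on simulated counts with an assumed spread between sums. Of genes with a true log2 fold change of 1 in either direction, 41 of 95 were called, and 89 of 95 with a change of 2. Of genes without a change, 10 of 3416 were called. A gene that was not called can therefore still differ between the tissues. Alternatives were HTODemux (Seurat 5.3.0), other cell filters, thinning, library-size scalings, DESeq2 1.42.0, no low-count filter, the replicate block, and leaving out each sum. The genes and lists were chosen with earlier results of these data known. All 10 genes of the set are named. Of each list, up to 3 genes with the smallest and 2 with the largest fold change among those called are named, and others where stated; a gene that this rule would name is not reported here.

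The labels do not tie a hashtag number to the same mouse in both tissues. Same-numbered sums were therefore not treated as pairs. Their deviations correlated at 0.02, 0.04 and -0.01 over 3072 genes, and those of unlike numbers at -0.05 to 0.03. Whether this measure could have shown a pairing was not tested.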

Additional observations from a re-analysis of the deposited data

Results flagged for a closer look

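Barcodes that passed the filters on genes and mitochondrial UMIs but whose hashtags were mixed or absent entered no comparison, 106 in tumor and 159 in blood. The 95% Poisson intervals of 5 genes lay above those of the blood barcodes of the same kind. Ier2 went the other way, at 72.5 CPM in tumor barcodes (26.6 to 158) and 345 CPM in blood barcodes (250 to 464). The share of all genes that differ in this way was not computed. Fos reached 1220.1 CPM in tumor barcodes (95% Poisson interval 994 to 1482) and 617 CPM in blood (487 to 772). Tumor barcodes held 193 CPM of Fosb against 8.02 CPM in blood barcodes, and 978 CPM of Jun against 192 CPM. Ier3 reached 1836 CPM in tumor barcodes against 104 CPM in blood barcodes, and Ier5 773 CPM against 345 CPM. The summed cells used in the comparison held 868 CPM of Fos in tumor (793 to 947) and 570.1 CPM in blood (527 to 616). These sums have no replicates, and their intervals cover counting error only.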

How the results depend on the processing

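Fosb, Jun, Ier3 and Ier5 were called higher and Ier2 lower in all 19 settings run, and Fosl2 in none. The number of genes of the set called higher, 6 as reported, ran from 4 to 7. Thinning cells to equal depth gave 636 genes higher and 678 lower, with fewer cells and UMIs tested. Fos was called with HTODemux (0.68), with at least 90% of hashtag counts (0.64) and without tumor replicate 1, with a range of 0.0400 to 0.67 when each sum was left out. Batf was called with at least 300 genes (1.00) and when thinned (1.01). Junb lost its call with at least 300 genes (0.33) and without the low-count filter (0.25), and ran from 0.26 to 0.58 with each sum left out. Jund lost it with at least 300 genes (0.34), thinning (0.29), no low-count filter (0.18) and DESeq2 (0.39), and ran from 0.29 to 0.55 with each sum left out. The cause was not tested.

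With the hashtag number as a replicate block, 993 genes were higher and 980 lower, and the same 7 genes of the set were called. Requiring at least 10 hashtag counts left the cells as they were, so this setting among the 19 repeats the reported one. Shares of cells reversed without thinning for Fos (-1.51 percentage points), Junb (-3.51) and Jund (-1.89), and with HTODemux for Jund (-0.0443). With each sum left out they ran from -2.20 to 4.71 for Fos, -2.13 to 4.63 for Junb and -0.433 to 2.70 for Jund, and the share of Fosl2 in the Fos group from -4.64 to 0.0758. Between tumor cells with and without a Retnlg UMI, HTODemux gave 16 genes higher and 3 lower, and leaving out a mouse 3 to 36 higher and 0 to 24 lower. There Junb was 0.0595 with HTODemux, and leaving out a mouse gave -0.23 to 0.69 for Jun, -0.20 to 0.0160 for Jund and -0.43 to 0.27 for Ier5. Where leaving out a mouse left a group with fewer sums, the smallest exact permutation p was 0.2. Depth limits Fosb in blood (4 UMIs) and Batf (52 in tumor, 73 in blood).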
